A study of Homo sapiens with 12 samples.

Results

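Of the 24180 gene symbols in each count table, 10 are described here: CCN1, CCN2, ANKRD1, CRIM1, AMOTL1, AMOTL2, LATS2, AJUBA, YAP1 and TEAD1. They were taken by symbol, as genes of the YAP-TEAD pathway and its widely used targets, and all 10 were present in the 12 libraries and passed the filter on low counts. The RNA came from 143B, an established human osteosarcoma cell line that the labels give as wild type, kept in DMEM with 10% serum. The 4 groups of 3 libraries are NC, which the titles call the control, BSG, M-BSG, which the titles name 5-MNP-BSG, and M-BSG-Hot, named 5-MNP-BSG (+). By its title the series concerns a bioactive glass used with magnetic heating against bone tumours. A single treatment text that names 5-MNP-BSG and an alternating magnetic field at a setting of 20 A stands on all 12 samples, the controls included, so neither the material, field, dose nor time of each group is known from the labels. The labels do not say whether a group's 3 samples were grown separately, so p-values here reflect sample-to-sample spread that could be technical.

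YAP1 is a transcriptional coactivator that enters the nucleus when cells are spread, stretched or at low density, and there binds the TEAD DNA-binding factors to switch on genes. The Hippo kinases, ending in LATS1 and LATS2, phosphorylate YAP1 and keep it in the cytoplasm. Several targets of YAP1 feed back on it, among them LATS2 and AMOTL2, while CCN1 and CCN2 encode secreted matrix proteins that bind integrins and are the usual readouts of the pathway. YAP1 is mainly controlled by its location in the cell, which counts of RNA do not measure.

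Total counts ranged from 34434993 to 38163152 per library. Of 8 markers listed for the line 7 had counts, and COL1A2 had no entry. VIM stood at 3606 to 4411 CPM (counts scaled to library total), SPARC at 317 to 391, RUNX2 at 9.80 to 16.9 and TWIST1 at 9.81 to 16.6. S100A4 was at 4.91 to 12.1, COL1A1 at 5.15 to 9.24 and ALPL lowest at 1.82 to 3.51. EPCAM, an epithelial marker, stood at 14.2 to 20.8 CPM and CDH1 at 0 counts in 5 libraries. The 5 epithelial markers in the tables summed to 15.8 to 17.5 CPM in NC, 18.1 to 21.8 in BSG, 15.4 to 19.1 in M-BSG and 16.1 to 18.2 in M-BSG-Hot, and their part in the results was not tested. The 6 immune markers summed to 120.1 to 161 CPM over all libraries and the 5 endothelial ones to 1.19 to 2.88. Of the immune markers CD14, at 0.382 to 1.89 CPM, was called higher than NC by 1.74 on the log2 scale in BSG, in all 22 alternatives too, and by 1.07 in M-BSG, where 13 of 22 alternatives did not call it (adjusted p up to 0.186). It was called lower in M-BSG-Hot than in BSG, at -1.55 (adjusted p = 0.0170), which 6 alternatives did not call. Of the 7 markers of the line 2 were called higher in BSG than in NC, where 5.5% of all genes tested were. These were TWIST1 at 0.75, in all 22 alternatives too, and S100A4 at 0.83 (edgeR adjusted p = 0.0498), which 14 did not call. TWIST1 was also called higher in M-BSG than in NC, at 0.46 (not without NC 2, adjusted p = 0.0613), and lower in M-BSG-Hot than in BSG, at -0.53, which 6 alternatives did not call. The part of these markers in the results was not tested. In bulk RNA, fewer cells of a type and less RNA per cell cannot be told apart. Libraries also differed in how long genes were counted relative to short ones. The median log2 level of genes of at least 6794 bases, minus that of genes of at most 2585 bases, each against its mean over the libraries, was -0.58 in BSG 1, -0.27 in M-BSG 1 and -0.23 in M-BSG-Hot 3, and between -0.05 and 0.29 in the other 9. These 3 libraries also had ribosomal protein shares of 11.3%, 9.95% and 9.86% of counts, against 7.55% to 9.18% in the rest, and results are given with and without them where they matter. They are set apart by a balance measured on these same counts, and leaving them out can narrow the spread within groups. A call gained only without them is therefore given as description.

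Compared per length, CCN1, CCN2 and ANKRD1 stood well above the other genes described here. Over the 12 libraries the mean FPKM (counts scaled to gene length and library total) was 250.3 for CCN1, 229 for CCN2 and 81.7 for ANKRD1, which puts CCN1 above 99.2% of all symbols and ANKRD1 above 97.3%. It was 31.9 for CRIM1, 31.3 for YAP1 and 31.2 for AMOTL2, which cannot be ranked against each other given SDs of 6.23, 4.54 and 3.92. Below them came AMOTL1 at 16.9, AJUBA at 15.7, TEAD1 at 12.8 and LATS2 at 5.44 FPKM. Even the least abundant, LATS2, had 894 to 1493 raw counts in a library.

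**Figure D1:**
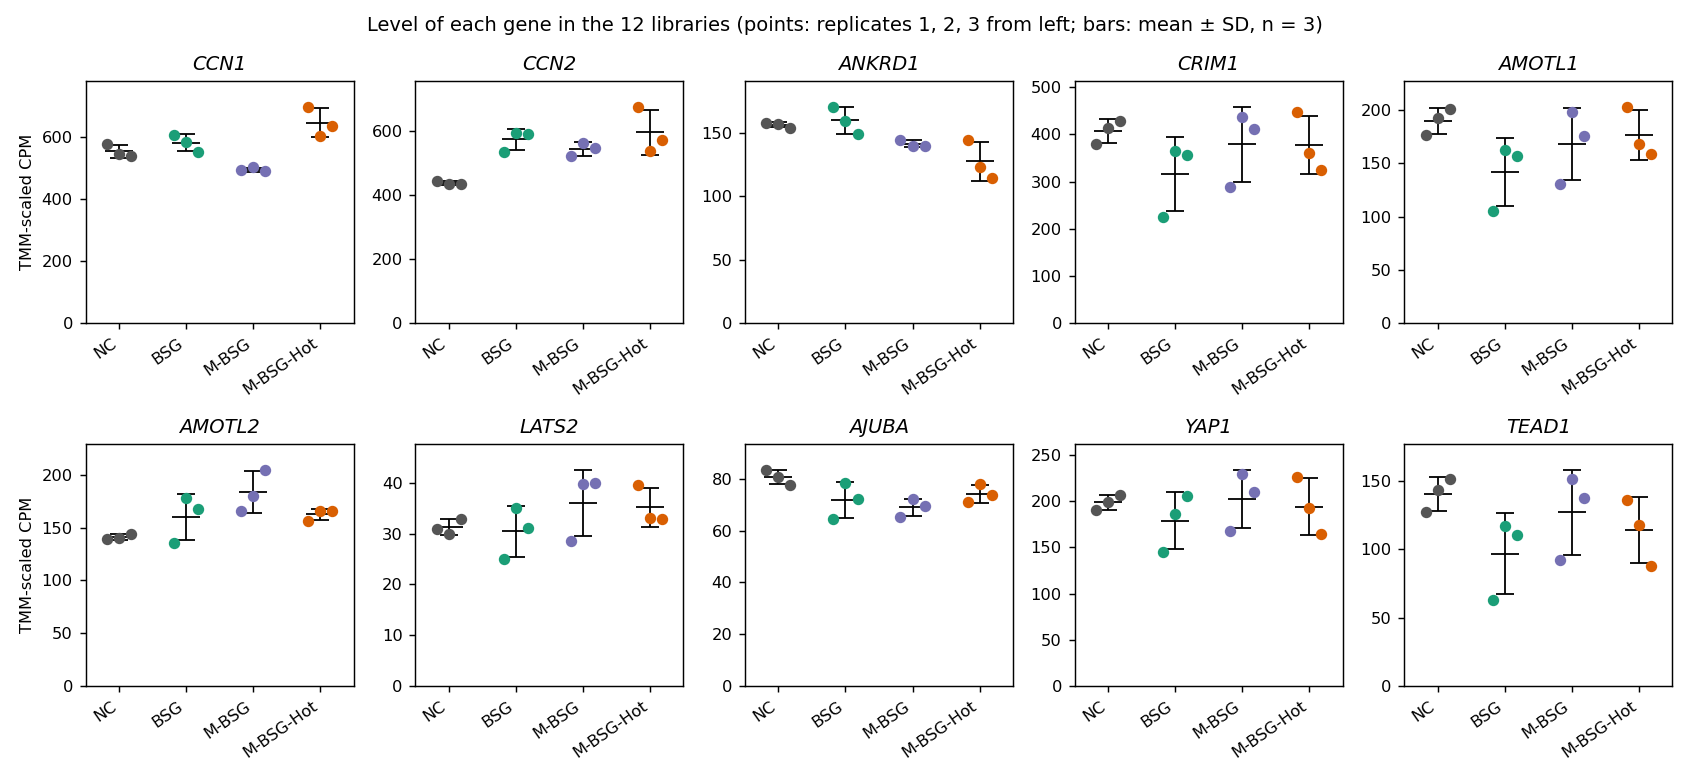
Level of the 10 genes in every library, as CPM scaled by edgeR's TMM factors on an axis from 0, with 1 point per library and bars for the mean ± SD of 3. All 9 libraries outside NC lie above the 3 NC libraries for CCN2, while CRIM1, AMOTL1, LATS2, YAP1 and TEAD1 are lowest in BSG 1 and M-BSG 1 within their groups.

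CCN2 encodes a matrix protein induced by YAP1, TGF-beta and mechanical load. It was the only one of the 10 called higher than in NC in every other group. Group by group, 5.5% (BSG), 3.22% (M-BSG) and 1.4% (M-BSG-Hot) of all genes tested were called higher. The share of genes called higher in all 3 at once was not computed. The NC libraries had 445, 436 and 434 TMM-scaled CPM and those of BSG 535, 594 and 591. M-BSG libraries reached 521, 563 and 545, and M-BSG-Hot libraries 674, 538 and 573. All 9 of these libraries lay above all 3 of NC, and the other 3 groups overlapped one another. The means were 438 ± 5.71 in NC, 573 ± 33.2 in BSG, 543 ± 20.9 in M-BSG and 595 ± 70.9 in M-BSG-Hot (SD, n = 3 each).

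Against NC, CCN2 rose by 0.39 on the log2 scale in BSG (SE 0.0851, adjusted p = 0.00999, Benjamini-Hochberg over edgeR quasi-likelihood p-values), a 1.31-fold level. It rose by 0.44 in M-BSG-Hot (SE 0.0851, adjusted p = 0.00729), a 1.36-fold level. Both of these calls held in all 22 alternative analyses, with adjusted p-values up to 0.0495 in BSG and 0.0438 in M-BSG-Hot. In M-BSG it rose by 0.31 (SE 0.0850, adjusted p = 0.0449), a call that 11 of 22 alternatives did not make. That call was lost without any single NC library (adjusted p = 0.120, 0.152 and 0.159 without NC 1, 2 and 3), M-BSG 2 (0.139), M-BSG 3 (0.136), BSG 2 (0.0550) or BSG 3 (0.0629). It was also lost with a replicate block (0.0652), scaling by library size only (0.130), no count filter (0.0555) and the length trend removed (0.0662). The 3 comparisons share the same NC libraries. Among the 3 groups other than NC, CCN2 differed by no more than 0.13 on the log2 scale and passed no test, with approximate 95% intervals of -0.24 to 0.09 for M-BSG against BSG, -0.03 to 0.30 for M-BSG-Hot against M-BSG and -0.11 to 0.22 for M-BSG-Hot against BSG.

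CCN1, the closest relative of CCN2 in this list and likewise a secreted integrin ligand, was not called against NC and was called between M-BSG-Hot and M-BSG. Its CPM was 580, 547 and 541 for the NC libraries, 609, 586 and 553 for BSG, 494, 504 and 491 for M-BSG, then 698, 606 and 637 for M-BSG-Hot. The M-BSG libraries were the lowest 3 of the 12 and those of M-BSG-Hot among the highest. M-BSG-Hot lay above M-BSG by 0.38 on the log2 scale (SE 0.0725, edgeR adjusted p = 0.0287), a 1.30-fold level, 647 ± 47.1 against 496 ± 6.72 CPM (SD, n = 3 each). It was the only one of the 10 called between these groups, where 0.0974% of all genes were higher. The call was not made by 9 of 22 alternatives: with the 2 groups fitted alone the adjusted p was 0.168, and without 1 library it was 0.0516, 0.0597 and 0.0582 (NC 1, 2 and 3), 0.0701, 0.0871 and 0.177 (M-BSG 1, 2 and 3), 0.133 (M-BSG-Hot 1) and 0.0761 (M-BSG-Hot 3). The difference stayed between 0.33 and 0.43 throughout.

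Ordered by mean, CCN1 ran from M-BSG-Hot through BSG (583 ± 27.9 CPM) and NC (556 ± 20.8) to M-BSG, and no neighbours in that order passed the test. The log2 fold changes were 0.07 for BSG against NC (adjusted p = 0.544), -0.16 for M-BSG against NC (0.242) and 0.22 for M-BSG-Hot against NC (0.117), although all M-BSG-Hot libraries were above and all M-BSG libraries below those of NC. In M-BSG-Hot against NC it was called, at 0.23, by DESeq2 (adjusted p = 0.0273) and without the 3 libraries of low length balance (0.0342). M-BSG against BSG gave -0.23 (SE 0.0724, adjusted p = 0.635), with every M-BSG library below every BSG library.

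The balance of both CCN genes within a library is given as a description, with no test. The FPKM of CCN1 divided by that of CCN2 was 1.34, 1.29 and 1.28 in NC, so CCN1 had the higher FPKM of the pair. BSG libraries had ratios of 1.17, 1.01 and 0.961. Those of M-BSG were 0.972, 0.918 and 0.924, and those of M-BSG-Hot 1.06, 1.16 and 1.14. All 9 ratios lay below those of NC, and in M-BSG all 3 were a little below 1, so that CCN2 had the slightly higher FPKM there. The M-BSG ratios overlapped those of BSG and lay below those of M-BSG-Hot. Library scaling cancels in such a ratio and the gene lengths behind the deposited values, 2278 and 2338 bases, are nearly equal. An exact permutation test of 3 against 3 libraries cannot give a p under 0.1.

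**Figure D2:**
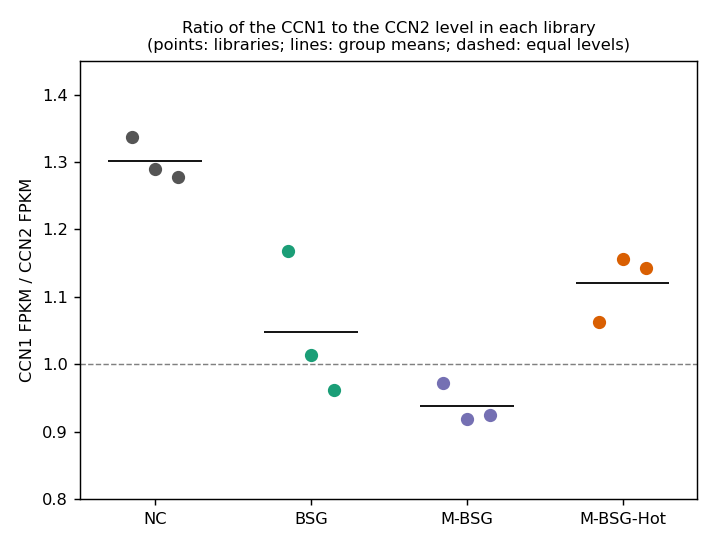
Ratio of the deposited FPKM of CCN1 to that of CCN2 in each of the 12 libraries, with group means as lines and equal levels dashed; the axis starts at 0.8. The NC libraries sit between 1.28 and 1.34 and the M-BSG libraries between 0.918 and 0.972.

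The rest of the CCN family was low or undetected. CCN3 had 111 to 162 counts per library, 3.11 to 4.40 CPM, and was not called in any of the 6 comparisons. CCN4, CCN5 and CCN6 had at most 2 counts in a library, under the 3 counts that a count of 0 allows.

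ANKRD1, a nuclear ankyrin-repeat protein of stretched muscle and a standard YAP target, was called in none of the 6 comparisons. Its CPM was 158, 157 and 154 for the NC libraries, 170.3, 159.7 and 149 for BSG, 145, 140 and 140 for M-BSG, then 145, 123 and 114 for M-BSG-Hot. M-BSG and M-BSG-Hot libraries were all below those of NC and of BSG, and BSG overlapped NC. M-BSG-Hot differed from NC by -0.29 on the log2 scale (SE 0.0856, edgeR adjusted p = 0.0703), which did not pass, though 6 of 22 alternatives called it lower. Among these were DESeq2 (adjusted p = 0.0375), the replicate block (0.0405), library size only (0.0277) and the fit without M-BSG-Hot 1 (0.0152). Against BSG the difference was -0.33 (SE 0.0856, adjusted p = 0.116), called by DESeq2 (0.0291) and without M-BSG-Hot 1 (0.0435). ANKRD1 in BSG was 0.03 from NC (approximate 95% interval -0.14 to 0.20).

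The promoters of CCN2 and ANKRD1 are shown because both carry TEAD motifs while CCN2 was called higher in M-BSG-Hot and ANKRD1 was not, and that of AMOTL2 because it was the other gene called higher in M-BSG. Windows of 250 bases before the start came from RefSeq on GRCh38.p14, independent of the build behind the counts, and 7 of the 10 genes had one: all but CCN1, CRIM1 and TEAD1. On both strands the motifs searched were GGAATG for TEAD (CATTCC on the other strand), TGANTCA for AP-1 and the CArG box for SRF. Capitals mark matches, which do not overlap, and the sequences run 5′ to 3′ on the strand of the gene. They are the minus strand of chr6:131951373-131951622 for CCN2, of chr10:90921088-90921337 for ANKRD1 and of chr3:134374448-134374697 for AMOTL2.
CCN2: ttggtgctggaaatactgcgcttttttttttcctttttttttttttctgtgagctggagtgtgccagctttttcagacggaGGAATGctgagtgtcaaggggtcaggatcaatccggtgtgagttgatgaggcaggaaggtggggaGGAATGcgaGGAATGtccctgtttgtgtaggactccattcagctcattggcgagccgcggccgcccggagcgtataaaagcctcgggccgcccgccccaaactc
ANKRD1: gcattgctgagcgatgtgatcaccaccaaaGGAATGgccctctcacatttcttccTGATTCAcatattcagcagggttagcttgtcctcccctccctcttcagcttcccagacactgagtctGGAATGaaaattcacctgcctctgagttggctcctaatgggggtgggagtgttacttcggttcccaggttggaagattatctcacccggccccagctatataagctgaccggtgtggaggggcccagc
AMOTL2: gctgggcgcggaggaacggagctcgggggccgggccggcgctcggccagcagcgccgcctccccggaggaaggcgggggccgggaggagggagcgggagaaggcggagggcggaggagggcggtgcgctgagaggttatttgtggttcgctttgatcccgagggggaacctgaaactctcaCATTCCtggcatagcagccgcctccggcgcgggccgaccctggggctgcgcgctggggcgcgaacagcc

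CCN2 held 3 TEAD matches, at -169, -104 and -95 from the start, ANKRD1 held 2 at -220 and -128 with an AP-1 match at -195, and AMOTL2 held 1 at -69. Of 35093 promoter windows of this length 11.9% held at least 1 TEAD match, 0.0826% held 3 or more, 6.57% held an AP-1 match and 1.16% a CArG box. AJUBA and YAP1 had 1 TEAD match each, AJUBA and AMOTL2 each had a second window with none, and the windows of AMOTL1 and LATS2 held no match of any of the 3 motifs. A match is only these letters in this window and says nothing of binding in 143B cells.

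AMOTL2, an angiomotin-family protein that binds YAP1 and restrains it, and is itself a YAP target, had its highest mean in M-BSG. Its CPM was 139, 140 and 144 for the NC libraries, 136, 178 and 167 for BSG, 166, 180 and 205 for M-BSG, then 157, 166 and 166 for M-BSG-Hot. Every M-BSG and M-BSG-Hot library was above NC, and in BSG the first library was not. The rise in M-BSG was 0.38 on the log2 scale (SE 0.10, edgeR adjusted p = 0.0368), 184 ± 19.9 against 141 ± 2.66 CPM (SD, n = 3 each). Of 22 alternatives 6 did not make this call: library size only (adjusted p = 0.116) and the fits without NC 1 (0.124), NC 2 (0.132), NC 3 (0.106), M-BSG 2 (0.0765) or M-BSG 3 (0.181). The difference was 0.18 in BSG (SE 0.10, adjusted p = 0.229) and 0.21 in M-BSG-Hot (SE 0.10, adjusted p = 0.322). In BSG it was called without BSG 1, at 0.30 (adjusted p = 0.0493), without the 3 libraries of low length balance, at 0.28 (0.00579), and with the gene length trend removed, at 0.27 (0.0215).

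LATS2, the kinase that phosphorylates YAP1 and is induced by it in turn, was not called in any comparison. Its CPM was 31.0, 30.0 and 33.0 for the NC libraries, 25.02, 35.1 and 31.2 for BSG, 28.5, 39.8 and 39.9 for M-BSG, then 39.7, 33.0 and 32.8 for M-BSG-Hot. The first libraries of BSG and M-BSG were the lowest of all 12. Without the 3 libraries of low length balance it was 0.34 higher in M-BSG than in NC (adjusted p = 0.00954), against 0.20 with all libraries (SE 0.142, adjusted p = 0.509).

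AJUBA, a LIM protein that binds LATS kinases and limits their activity, had 83.4, 80.8 and 77.7 CPM for the NC libraries, 64.6, 78.5 and 72.0 for BSG, 65.4, 72.0 and 69.5 for M-BSG, then 71.1, 77.8 and 73.8 for M-BSG-Hot. The M-BSG libraries were all below those of NC, by 0.23 on the log2 scale on average (SE 0.0816, adjusted p = 0.141), and no alternative called it in any comparison.

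**Figure D3:**
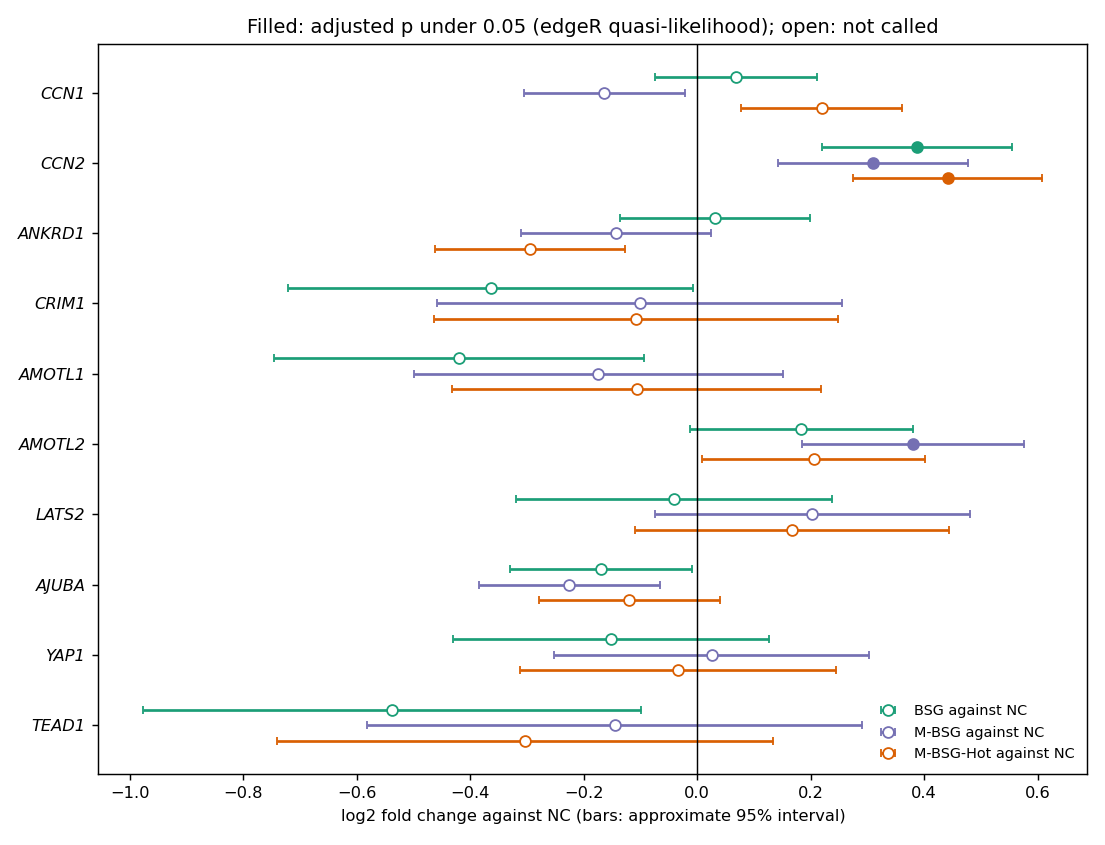
Log2 fold change of each gene in each of the other groups against the same 3 NC libraries, with approximate 95% intervals and filled symbols for an adjusted p under 0.05. The filled symbols are CCN2 in all 3 comparisons, at 0.39, 0.31 and 0.44, and AMOTL2 in M-BSG, at 0.38.

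YAP1 and TEAD1, the coactivator and its DNA-binding partner, were called in none of the 6 comparisons. YAP1 had 191, 199 and 207 CPM for the NC libraries, 145, 186 and 206 for BSG, 168, 230.0 and 210.0 for M-BSG, then 226, 192 and 165 for M-BSG-Hot. Each of the other groups overlapped the NC libraries, and the log2 difference from NC was -0.15 for BSG, 0.03 for M-BSG and -0.03 for M-BSG-Hot (SE 0.142 each), with adjusted p-values of 0.487, 0.959 and 0.937. The approximate 95% intervals ran from -0.43 to 0.13, from -0.25 to 0.30 and from -0.31 to 0.24.

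TEAD1 had 127, 143 and 152 CPM for the NC libraries, 63.2, 117 and 110.3 for BSG, 92.1, 152 and 138 for M-BSG, then 136, 118 and 87.9 for M-BSG-Hot. All BSG libraries were below all of NC. The difference of BSG from NC was -0.54 on the log2 scale, the largest among the 10 genes, and did not pass (SE 0.224, edgeR adjusted p = 0.125). Without the 3 libraries of low length balance, set apart on these same counts, it was smaller, -0.32, and was called (edgeR adjusted p = 0.0101). It was also called with no count filter (-0.56, adjusted p = 0.0438). With the gene length trend of each library removed it was -0.35 (adjusted p = 0.0887).

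CRIM1, a membrane protein with growth-factor-binding repeats and a YAP target, and AMOTL1, the other angiomotin relative here, had the same pattern over libraries as TEAD1. CRIM1 had 379, 413 and 428 CPM for the NC libraries, 225, 366 and 356 for BSG, 289, 437 and 410.4 for M-BSG, then 446, 360 and 325 for M-BSG-Hot. AMOTL1 had 176, 193 and 201 CPM for the NC libraries, 106, 163 and 157 for BSG, 131, 198 and 176 for M-BSG, then 203, 168 and 158 for M-BSG-Hot. In BSG both genes lay below NC in every library, by 0.36 for CRIM1 (SE 0.182, adjusted p = 0.193) and 0.42 for AMOTL1 (SE 0.166, adjusted p = 0.109) on the log2 scale. Without the 3 libraries of low length balance the differences were -0.18 for CRIM1 (edgeR adjusted p = 0.123) and -0.26 for AMOTL1 (0.0328), which was then called. AMOTL1 was also called with no count filter, at -0.44 (edgeR adjusted p = 0.0444). With the length trend removed the differences were -0.13 for CRIM1 (0.344) and -0.21 for AMOTL1 (0.0955).

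These long genes followed the balance of long and short genes in the library. Pearson's r over the 12 libraries between a gene's log2 CPM and that balance was 0.99 for TEAD1 (9417 bases), 0.98 for CRIM1 (11637 bases), 0.96 for AMOTL1 (10073 bases), 0.93 for YAP1 (6210 bases) and 0.74 for LATS2 (6121 bases). It was 0.56 for AJUBA (4728 bases) and 0.25 for AMOTL2 (5193 bases), and for the short genes -0.23 for CCN1, -0.15 for CCN2 and -0.08 for ANKRD1. Leaving out the 2 libraries with the most extreme balance, r was 0.98 for TEAD1, 0.95 for CRIM1, 0.88 for AMOTL1 and 0.83 for YAP1, but 0.39 for LATS2 and -0.04 for AJUBA, so for the last 2 genes the relation rests on those libraries. Without them it was -0.09 for AMOTL2, and for the short genes -0.47 for CCN1, -0.29 for CCN2 and 0.50 for ANKRD1. Over all tested genes of at least 9000 bases the median r was 0.74 and 26.9% exceeded 0.9, so the link is common among long genes. From 6000 to under 9000 bases, the range of YAP1 and LATS2, the median r was 0.54 and 13.2% exceeded 0.9. The balance is itself measured on the same counts. The NC libraries stood at 0.03, 0.22 and 0.23 on that scale, BSG 2 and BSG 3 at 0.00 and -0.05, so the balance also moved with the group, and its part in the lower levels of TEAD1, CRIM1 and AMOTL1 in BSG was not tested.

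**Figure D4:**
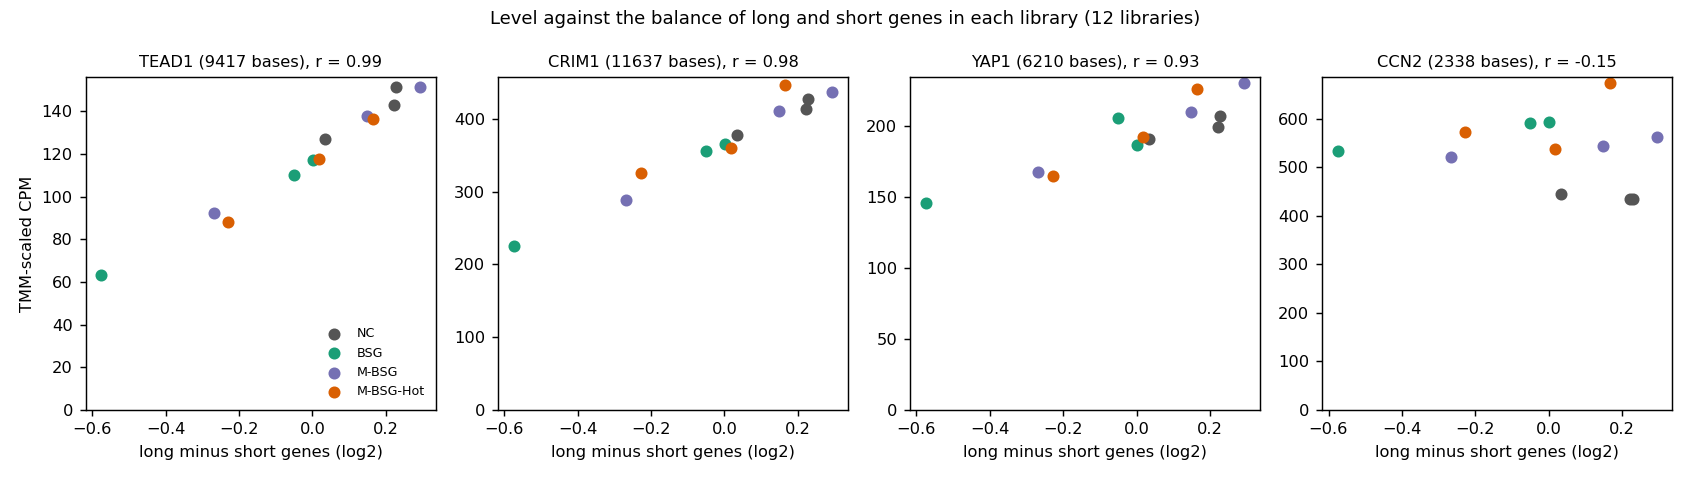
TMM-scaled CPM of TEAD1, CRIM1, YAP1 and CCN2 on axes from 0, against the median log2 level of long minus short genes in each of the 12 libraries, coloured by group. TEAD1 and CRIM1 lie along a line from BSG 1 at the left end to the libraries with most counts in long genes, and CCN2 does not, with its 3 NC libraries lowest.

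Correlations between the genes over the 12 libraries are given as a description. CRIM1, AMOTL1, YAP1 and TEAD1 had r between 0.89 and 0.99 with one another, and LATS2 had r between 0.72 and 0.81 with these 4. AMOTL2 had r = 0.68 with LATS2 and 0.53 with CCN2, and AJUBA had r = 0.62 with AMOTL1. CCN1 and CCN2 had r = 0.41 with each other, and ANKRD1 had r = -0.15 and -0.31 with them. YAP1 itself had r = -0.17 with CCN1, 0.12 with CCN2 and -0.07 with ANKRD1. Libraries share depth, group and length balance, so these values carry no test. Among 10744 other genes with at least 5 CPM, the pattern of CCN2 was most like those of ZDHHC7 and CUL1 (r = 0.93 and 0.92) and that of CCN1 most like EPHX1 and PLOD3 (0.94 and 0.92). ANKRD1 was closest to DR1 and THUMPD2 (both 0.89) and AMOTL2 to DHX9 and PPRC1 (0.96 and 0.94). AJUBA was closest to CMTR1 and ASNS (both 0.93) and LATS2 to KCNMA1 and JADE2 (both 0.97). The nearest patterns of TEAD1, CRIM1, AMOTL1 and YAP1 were in genes of at least 7106 bases. These were CDK12 and SMG1 for TEAD1, SETD7 and CBL for CRIM1, FBN2 and NOTCH2 for AMOTL1, and PPFIBP1 and USP46 for YAP1. All had r from 0.98 to 1.00.

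The counts of called genes among the 10 are set here against all 15407 genes tested. At an unadjusted p under 0.05, the shares of all genes higher and lower were 14.8% and 15.8% in BSG, 8.05% and 10.3% in M-BSG, then 6.31% and 10.5% in M-BSG-Hot against NC. They were 3.33% and 3.43% in M-BSG against BSG, 3.42% and 5.42% in M-BSG-Hot against M-BSG, then 6.24% and 7.5% in M-BSG-Hot against BSG, and the unadjusted counts of this and the other gene lists stand beside these shares. In BSG against NC 1 was higher, where 5.5% of all genes were, and 0 lower, where 6.22% were, with 2 lower at an unadjusted p under 0.05 and 0 lower by DESeq2 and limma. In M-BSG against NC 2 were higher (background 3.22%) and 0 lower (3.13%; 2 unadjusted, 0 by DESeq2 and limma). In M-BSG-Hot against NC 1 was higher (1.4%) and 0 lower (3.51%; 1 unadjusted, 1 by DESeq2, 0 by limma). For M-BSG-Hot against M-BSG 1 was higher (0.0974%) and 0 lower (0.597%; 0 unadjusted and 0 by both other tools). M-BSG against BSG gave 0 higher (0%) and 0 lower (0.13%), with 1 lower unadjusted and 0 by the other tools. M-BSG-Hot against BSG gave 0 higher (0.0974%) and 0 lower (0.753%), with 1 lower unadjusted, 1 by DESeq2 and 0 by limma. Libraries did not overlap for 1 higher and 3 lower of the 10 genes in BSG against NC (18.1% and 20.6% of all genes), 2 and 3 in M-BSG (12.4% and 15.1%) and 3 and 1 in M-BSG-Hot (13.5% and 14.5%). They were 0 and 2 in M-BSG against BSG (4.08% and 4.82%), 1 and 0 in M-BSG-Hot against M-BSG (6.28% and 7.5%), and 0 and 1 in M-BSG-Hot against BSG (7.83% and 8.87%). The median log2 fold change of the 10 against NC was -0.10 in BSG, -0.12 in M-BSG and -0.07 in M-BSG-Hot, against -0.02, -0.01 and 0.00 over all genes tested.

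Few other genes of the pathway were called. Of 29 genes of the Hippo kinase cascade and its inputs, 4 of them among the 10, all were tested and AMOTL2 in M-BSG against NC was the only call over the 6 comparisons. In BSG against NC 8 of the 29 were lower and 0 higher at an unadjusted p under 0.05 (15.8% and 14.8% of all genes), 4 were lower by DESeq2 and 0 by limma, with a median of -0.17 against -0.02 over all genes. Many genes of this list are long. FAT1 (15160 bases) had 60.4, 137 and 135 CPM in BSG 1, 2 and 3, while STK3 (9288 bases) had 19.9, 20.7 and 21.0. The part of the length balance in these counts was not tested. In M-BSG against NC 2 were lower unadjusted, 1 by DESeq2 and 0 by limma. Unadjusted, there were 0 higher and 1 lower in M-BSG-Hot against NC, 0 and 0 in M-BSG against BSG, 1 and 1 in M-BSG-Hot against M-BSG, then 3 and 0 in M-BSG-Hot against BSG, with 0 by DESeq2 and limma in these 4. Per length LATS1 and LATS2 were close in NC, at 4.87 ± 0.653 and 5.30 ± 0.249 FPKM (SD, n = 3), while MAP4K4, a kinase that can act in parallel to the Hippo kinases, reached 75.5 ± 4.17. AMOT, the founder of the angiomotin family, was at 2.68 ± 0.233 FPKM in NC, well under AMOTL1 (19.5 ± 1.43) and AMOTL2 (28.2 ± 0.652).

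YAP1 and TEAD1 were not the most abundant of their families. WWTR1, which encodes the YAP1 relative TAZ, stood at 48.8 ± 1.91 FPKM in NC against 33.2 ± 1.58 for YAP1, and TEAD4 at 42.0 ± 1.39 against 15.5 ± 1.48 for TEAD1, 6.66 ± 0.352 for TEAD3 and 4.2 ± 0.331 for TEAD2 (SD, n = 3 each). None of the 9 tested genes of the YAP, TAZ, TEAD and VGLL families was called in any comparison by edgeR. At an unadjusted p under 0.05 there were 1 lower in BSG, 2 higher in M-BSG and 1 higher in M-BSG-Hot against NC, and 1 higher in M-BSG-Hot against BSG. DESeq2 called 1 higher in M-BSG against NC and none elsewhere, and limma none. WWTR1 had 263 to 277 TMM-scaled CPM in NC, 283 to 311 in BSG, 299 to 402 in M-BSG and 281 to 373 in M-BSG-Hot. Every library outside NC thus lay above NC for this gene. With each group taken alone, this was so for 18.1% (BSG), 12.4% (M-BSG) and 13.5% (M-BSG-Hot) of all genes. YAP1 overlapped NC in each group.

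Of 16 further genes often listed as YAP or TAZ targets, 1 was higher and 3 lower in BSG against NC (5.5% and 6.22% of all genes). For M-BSG it was 0 higher and 1 lower (3.22% and 3.13%), and for M-BSG-Hot 0 and 0 (1.4% and 3.51%). M-BSG-Hot had 2 higher and 3 lower unadjusted, 1 higher by DESeq2 and 0 by limma. PTPN14 is also counted among the Hippo inputs above. The 3 comparisons without NC gave 0 calls by any of the 3 tools, with at most 1 higher and 1 lower unadjusted. GADD45B, a stress-induced growth-arrest gene that other pathways induce too, rose in BSG by 0.75 (log2), from 35.05 CPM in NC to 58.8 (SE 0.147, adjusted p = 0.00473). AXL, a receptor tyrosine kinase, fell in BSG by 0.42, from 663 CPM to 495 (SE 0.0849, adjusted p = 0.00547), and both calls held in all 22 alternatives. In M-BSG AXL fell by 0.31 (adjusted p = 0.0460), a call 11 alternatives did not make, among them the DESeq2 size factors and the fits without any single NC or M-BSG library, with adjusted p-values up to 0.160. DOCK5, an activator of Rac, fell in BSG by 0.60 (adjusted p = 0.0251) and RBMS3, an RNA-binding protein, by 0.70 (0.0288). DOCK5 lost its call without NC 2, NC 3 or BSG 1 (adjusted p up to 0.109). RBMS3 lost it without NC 1, NC 2 or BSG 1, with the 2 groups alone and with the length trend removed (up to 0.139).

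CCN1, CCN2 and ANKRD1 can also be induced by SRF with its coactivators MRTF and, for CCN2, by TGF-beta. Of 15 tested SRF and MRTF targets 0 were called in any comparison by edgeR or limma. At an unadjusted p under 0.05 there were 1 higher and 3 lower for BSG, 1 and 1 for M-BSG, and 1 and 1 for M-BSG-Hot, each against NC. DESeq2 called 1 higher and 1 lower in BSG, 1 lower in M-BSG and 1 higher in M-BSG-Hot. Without NC, DESeq2 called 0, and unadjusted there were 0 for M-BSG against BSG, 2 higher for M-BSG-Hot against M-BSG and 3 higher for M-BSG-Hot against BSG. Of 11 tested TGF-beta targets SMAD7, the inhibitory SMAD, rose in BSG by 0.46 (SE 0.0868, adjusted p = 0.00340) and in M-BSG by 0.49 (SE 0.0868, adjusted p = 0.00340), and both calls held in all 22 alternatives. SMAD7 was the only one of the 11 called in BSG against NC, where 5.5% of all genes were called higher and 6.22% lower. None was called in M-BSG-Hot (1.4% and 3.51% of all genes), with 3 higher and 2 lower unadjusted, 1 higher by DESeq2 and 0 by limma. The comparisons without NC gave 0 calls by edgeR and limma, and 1 higher by DESeq2 in M-BSG-Hot against BSG. Unadjusted there were 1 higher for M-BSG against BSG, 1 lower for M-BSG-Hot against M-BSG, and 2 higher and 1 lower for M-BSG-Hot against BSG.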

How the data were processed

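RNA-seq libraries of 143B cells (4 groups of 3, grouped by sample title) were analysed from 2 tables per sample. The authors deposited whole, unnormalised counts per gene symbol. They also deposited FPKM, each equal to its count over gene length and library total (100% of values above 0, within a relative tolerance of 1e-06). For aligner, counting program, annotation and strandedness, the sources used here give nothing. GRCm38 and mm10, names of a mouse assembly, stand in the submitters' processing notes although the symbols are human, so the counts get no gene coordinates, and overlapping genes may share reads. Per the labels' protocols, 1.3 µg of RNeasy-extracted total RNA went into SMARTER libraries.

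EdgeR 4.0.16 (R 4.3.3) tested the counts by quasi-likelihood, with TMM factors of 0.951 to 1.05, filterByExpr at a minimum count of 10 (15407 genes kept) and the 12 libraries together, a mean for each group. Benjamini-Hochberg adjustment ran over all genes tested, and genes under 0.05 were called. An SE is the size of the log2 fold change over the root of F. Code was tested on simulated data. Replicates differed by more than sampling noise (chi-square per degree of freedom 3.37 to 60.9), so all 12 were kept. Alternatives were DESeq2 1.42.0, limma 3.58.1 (log2 CPM, prior count 2), other scalings and filters, the 2 groups alone, a replicate block, and leaving libraries out. Removal of each library's length trend was added later. Named genes are the 10 members, up to 4 called genes by adjusted p of each list in a comparison, and the 2 genes most correlated with each member. The members and lists were chosen with earlier results of these data known. The result of 1 further list gene is not reported here.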

Additional observations from a re-analysis of the deposited data

How the results depend on the processing

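Of 60 comparisons of a member between groups 5 were called, 2 of these held in all 22 alternatives, 3 were lost in at least 1, 7 others were gained in at least 1 and 0 reversed. Counts that stayed near those of the main fit are left out below. Scaling by library size only gave members higher in M-BSG against NC 0 and lower in M-BSG-Hot against NC 1, and genes higher 1 in M-BSG against BSG and 6 in M-BSG-Hot against BSG. It moved the share of higher among called genes from 46.9% to 29.9% (BSG), 50.7% to 37.7% (M-BSG) and 28.4% to 18.1% (M-BSG-Hot) against NC. With no count filter 2 members were lower in BSG and 1 higher in M-BSG against NC, and genes were 6 higher and 32 lower in M-BSG against BSG and 25 higher in M-BSG-Hot against BSG. A minimum count of 50 gave 9 genes higher in M-BSG-Hot against M-BSG. DESeq2 gave 2 members higher and 1 lower in M-BSG-Hot against NC, and 1 lower in M-BSG-Hot against BSG. Its genes were 1469 higher in BSG and 397 in M-BSG-Hot against NC, 13 higher and 37 lower in M-BSG against BSG, 47 and 229 in M-BSG-Hot against M-BSG, then 96 and 295 in M-BSG-Hot against BSG. The 2 groups alone gave 0 members, 3 genes higher and 7 lower in M-BSG-Hot against M-BSG, then 3 and 60 in M-BSG-Hot against BSG.
With a replicate block 1 member was higher in M-BSG and 1 lower in M-BSG-Hot against NC, and 2 genes higher in M-BSG against BSG. Whether equal numbers pair the samples is not settled. Correlations of deviations between libraries of equal number ran from -0.287 (M-BSG 1 and M-BSG-Hot 1) to 0.408 (BSG 1 and M-BSG 1), with 4 of 18 over 0.1. Of 12 libraries 7 were closest to their own number. BSG 1, M-BSG 1 and M-BSG-Hot 3 were set apart by length balance on these same counts. Without them, members were 2 higher and 2 lower in BSG and 2 higher and 1 lower in M-BSG-Hot against NC. LATS2 was also gained as higher in M-BSG against NC (edgeR adjusted p = 0.00954). Against NC, genes were then 1047 higher and 925 lower (M-BSG) or 451 and 862 (M-BSG-Hot). They were 73 and 38 in M-BSG against BSG, 29 and 246 in M-BSG-Hot against M-BSG, then 67 and 193 in M-BSG-Hot against BSG. With the length trend removed, chosen after seeing the data, members were 2 higher in BSG, 1 higher in M-BSG and 1 lower in M-BSG-Hot against NC. Genes were 1481, 836 and 379 higher against NC (59.8% of calls in BSG), 1 higher in M-BSG against BSG, 32 higher and 185 lower in M-BSG-Hot against M-BSG, then 70 and 262 in M-BSG-Hot against BSG.
Leaving out 1 library, members higher ranged 1 to 2 (BSG against NC), 0 to 2 (M-BSG against NC) and 0 to 1 (M-BSG-Hot against M-BSG), and members lower 0 to 1 in M-BSG-Hot against NC and against BSG. Genes higher and lower ranged 424 to 1329 and 429 to 1227 (BSG), 295 to 635 and 248 to 575 (M-BSG), then 103 to 304 and 285 to 654 (M-BSG-Hot) against NC. They ranged 0 to 3 and 3 to 24 (M-BSG against BSG), 3 to 20 and 22 to 123 (M-BSG-Hot against M-BSG), and 1 to 28 and 49 to 135 (M-BSG-Hot against BSG). The cause of these shifts was not tested. The lowest count of a member in a library was 894.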
